A study of Homo sapiens with 7 samples.

Results

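The data described here are the late step of wild-type cardiac differentiation, from cardiac progenitors to beating cardiomyocytes, as 2 of 7 libraries made by enhanced reduced representation bisulfite sequencing. The assay enriches short CpG-rich fragments, and bisulfite turns their unmethylated cytosines into bases that sequence as T, while methylated ones still sequence as C. HUES8, an established line of human embryonic stem cells, gave all 7. Wild-type cardiomyocytes (WT CM) were taken at day 14 in the series text and at day 15 in the library's description, and wild-type cardiac progenitors (WT CP) at day 8. Wild-type stem cells (WT SC, day 0) and cardiac mesoderm (WT CME, day 3), and cells of the same line with TET1, TET2 and TET3 knocked out (TKO SC, TKO CME and TKO CP, same days), are used only to place the late step. All were grown as a monolayer, with CHIR99021, an activator of Wnt signalling, followed by IWP2, a Wnt antagonist. After the WT CP stage and before the WT CM stage the cells spent time in lactate medium without glucose, which is used to enrich cardiomyocytes. A change within cells and a change in which cells survived that medium therefore cannot be told apart, nor can fewer cells with a methylated allele and less methylation per cell. The source label of the WT CM library names cardiac mesoderm, so its stage rests on its title. Each group is 1 library, so no difference could be set against replicate spread.

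The comparison used every CpG with 10 or more reads, both strands summed, in both libraries, and gave the level as methylated reads over methylated plus unmethylated reads. It covered 1900257 CpGs and 90801 bins of 1 kb with 5 or more such CpGs. The median CpG had 63 reads in WT CM and 65 reads in WT CP. Calls needed an adjusted p under 0.01 (Fisher's exact test, two-sided, on the summed reads of the bin, Benjamini-Hochberg over all bins) together with a difference of at least 25 percentage points. These tests compare the 2 libraries and cover counting error only. Neighbouring CpGs often sit on the same read and were counted separately, so the p-values and the 95% Wilson intervals are too small.

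Methylated cytosine at CpGs is set by the DNMT enzymes and can be oxidised by the TET enzymes on the way to unmethylated cytosine. Promoters rich in CpGs are mostly unmethylated in any cell, while CpG-poor promoters and distal sites of tissue genes often lose methylation as the tissue forms. In maturing heart muscle the sites known for such loss lie at genes of the contractile apparatus and of calcium handling. The files hold no expression, so the cardiomyocyte label could not be checked by RNA, and no statement on expression is made.

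Little methylation changed at this step. The mean level over CpGs was 39.99% in WT CM and 39.52% in WT CP, and the median bin differed by 0.098 points. Of the bins, 86.84% differed by less than 5 points and 97.04% by less than 10. The call found 28 bins higher in WT CM (0.0308% of those tested) and 24 lower (0.0264%). The step before it, WT CP minus WT CME, had 33 bins higher (0.0351%) and 3365 lower (3.58%) of 94044. At 10 points it had 399 higher (0.424%) and 12059 lower (12.8%). That comparison shares the WT CP library with this one. The first step, WT CME minus WT SC, had 33 higher (0.0313%) and 17 lower (0.0161%) of 105528, and at 10 points 908 higher (0.86%) and 175 lower (0.166%). By adjusted p alone, 4069 bins were higher in WT CM (4.48%) and 1226 were lower (1.35%). At single CpGs, 787 of 1900257 were higher (0.0414%) and 227 lower (0.0119%) by the same 2 thresholds.

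The calls rest on this counting. With each bin's reads divided by its number of CpGs, 0 of the 52 called bins passed the adjusted p and 41 had an unadjusted p under 0.05, 22 of them higher and 19 lower. Over all bins 0.466% had an unadjusted p under 0.05 in that setting. The 52 bins were chosen from the same reads for their large differences. Their higher share is therefore in part given by the choice and is no separate support. The called bins also held few CpGs, with a median of 6 in the higher bins and 6.5 in the lower bins, against 10 in all bins tested. Of the 28 higher bins 20, and of the 24 lower bins 12, held only 5 or 6 CpGs. Over all 90801 bins the share with 5 or 6 was not counted, and 45328 held 5 to 9.

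Few of the gene starts that could be placed changed. Gene starts were found by placing the 300-base RefSeq promoter sequences on the hg19 positions of the files by their CpG spacing, a step added after the data had been seen. Placing needed 8 or more matched CpGs, or 5 or more between matched neighbours, and 21319 of the 35116 sequences held 8 or more. Promoters with fewer than 5 CpGs could therefore not be placed, and nothing is said of them here. This gave 13879 windows with enough reads, of which 92.25% had a level under 5% in WT CP. At 25 points 1 window was higher in WT CM (0.00721%) and 2 were lower (0.0144%). At 10 points, a threshold also added later, 48 windows were higher (0.346%) and 9 lower (0.0648%). The lower ones belonged to HHATL-AS1, LOC124904075, MYO16, KLHL40, SRPK3, PNLDC1, PAX8-AS1, EML1 and FXYD1. Of these, KLHL40 is a Kelch protein that stabilises thin filaments of striated muscle, SRPK3 is a muscle kinase of splicing factors, and FXYD1 is phospholemman, a regulator of the sodium pump in heart muscle. HHATL-AS1 is named for its place antisense to HHATL, a gene of heart and skeletal muscle. These genes are named and described after their values were seen, and no fixed list put them together: of the sarcomere list's 29 bins, 0 were lower by 10 points.

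The promoter sequences of these 4 starts, and that of CACNA1C-AS1, which gained methylation, show which CpGs were measured. They are RefSeq sequences (GRCh38.p14), 5′ to 3′ on the gene's strand, with the measured CpGs in capitals. Each ends 50 bases into the transcript. Their matched places in the files' hg19 coordinates are chr3:42743783-42744082 (HHATL-AS1, plus strand), chr3:42726779-42727078 (KLHL40, plus), chrX:153046246-153046545 (SRPK3, plus), chr19:35630288-35630587 (FXYD1, plus) and chr12:2800274-2800573 (CACNA1C-AS1, minus).
HHATL-AS1: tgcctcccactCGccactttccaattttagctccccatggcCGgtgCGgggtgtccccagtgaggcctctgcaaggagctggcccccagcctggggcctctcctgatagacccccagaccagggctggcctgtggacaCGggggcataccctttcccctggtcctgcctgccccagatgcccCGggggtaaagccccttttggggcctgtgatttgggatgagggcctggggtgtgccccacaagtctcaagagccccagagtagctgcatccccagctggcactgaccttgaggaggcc
KLHL40: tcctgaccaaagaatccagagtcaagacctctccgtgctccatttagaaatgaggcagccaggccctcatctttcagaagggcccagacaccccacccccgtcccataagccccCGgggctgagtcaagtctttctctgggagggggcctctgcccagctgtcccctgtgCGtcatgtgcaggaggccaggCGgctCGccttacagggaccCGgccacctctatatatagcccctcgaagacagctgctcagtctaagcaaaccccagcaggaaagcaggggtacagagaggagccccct
SRPK3: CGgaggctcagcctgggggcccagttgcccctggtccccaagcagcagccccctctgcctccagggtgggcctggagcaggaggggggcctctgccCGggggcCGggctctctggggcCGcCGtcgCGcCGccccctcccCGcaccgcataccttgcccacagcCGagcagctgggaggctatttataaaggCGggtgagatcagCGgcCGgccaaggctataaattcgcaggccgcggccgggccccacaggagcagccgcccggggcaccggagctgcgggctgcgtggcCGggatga
FXYD1: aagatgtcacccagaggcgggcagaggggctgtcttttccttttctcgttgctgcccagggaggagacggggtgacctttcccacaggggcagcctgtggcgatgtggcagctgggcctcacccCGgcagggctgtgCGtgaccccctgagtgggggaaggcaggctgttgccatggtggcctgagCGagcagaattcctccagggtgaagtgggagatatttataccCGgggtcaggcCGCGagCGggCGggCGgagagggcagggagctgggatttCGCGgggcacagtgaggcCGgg
CACNA1C-AS1: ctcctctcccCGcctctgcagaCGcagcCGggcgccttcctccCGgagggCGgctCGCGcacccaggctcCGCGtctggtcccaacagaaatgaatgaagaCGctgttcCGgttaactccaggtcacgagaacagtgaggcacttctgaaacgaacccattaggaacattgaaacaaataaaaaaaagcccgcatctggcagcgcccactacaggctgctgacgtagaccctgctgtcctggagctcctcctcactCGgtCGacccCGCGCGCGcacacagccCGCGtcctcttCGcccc

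At HHATL-AS1 the window's level was 41.5% in WT CM (349 reads, interval 36.5% to 46.8%) and 71.8% in WT CP (340 reads, 66.8% to 76.3%). The difference was -30.2 points, with 4 of its 5 CpGs lower in WT CM and an adjusted p of 3.99e-13 (Fisher's exact test). In the earlier wild-type libraries the window was at 82.3% in WT SC and 86.1% in WT CME, so most of its loss came after the progenitor stage. It stood at 81.3% in TKO CP.

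At KLHL40, the next matched start on the same chromosome, the window was at 60.2% in WT CM (289 reads) and 81.4% in WT CP (231 reads). All 5 CpGs were lower in WT CM, with an adjusted p of 2.16e-05 by Fisher's exact test. The CpG at position -80 from the matched start was methylated in 32.7% of 49 reads in WT CM and 85.4% of 41 reads in WT CP. The CpG at position -136 differed least of the 5, with 74.7% in WT CM and 83.6% in WT CP. WT SC (82.9%) and WT CME (92.5%) were both high at this window.

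At SRPK3 the window was at 65.0% in WT CM (266 reads) and 85.3% in WT CP (265 reads), with 12 of 13 CpGs lower in WT CM and an adjusted p of 9.82e-06 (Fisher's exact test). The difference was uneven along the window. The CpG at position -129 was methylated in 18.2% of 11 reads in WT CM and 90.9% of 11 reads in WT CP, and the CpG at position -250 in 89.4% of 47 reads in WT CM and 94.1% of 34 reads in WT CP. The CpGs that differed most had 11 or 12 reads in each library.

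FXYD1 differed in timing, because it was already low in progenitors. Its window was at 17.6% in WT CM (968 reads) and 30.9% in WT CP (1004 reads), an adjusted p of 1.42e-09 (Fisher's exact test), after 85.3% in WT SC and 90.1% in WT CME. Of its 12 CpGs, 9 were lower in WT CM. Upstream, outside the window, the CpG at position -448 was methylated in 56.1% of 107 reads in WT CM and 87.0% of 108 reads in WT CP. In TKO CP the window was at 93.6%.

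Of the other lower windows, MYO16, an unconventional myosin, had 21.5% in WT CM and 44.2% in WT CP, and EML1, a microtubule-binding protein, had 17.1% in WT CM and 33.0% in WT CP. Both were over 75% in WT SC and WT CME, so they too continued a loss that began before the progenitor stage. PNLDC1, a nuclease that trims piRNAs, had 76.0% in WT CM and 95.2% in WT CP. LOC124904075 fell to 35.8% in WT CM, against 65.9% in WT CP. PAX8-AS1 had 56.4% in WT CM and 72.5% in WT CP, close to its 53.6% in WT SC.

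The letters CAGCTG, a palindrome of the E-box type that basic helix-loop-helix factors bind, are present in the promoters of HHATL-AS1, KLHL40, SRPK3 and FXYD1 printed above and absent from that of CACNA1C-AS1. They occur in 5 of the 9 genes with a lower window, in 19 of the 47 genes with a higher one, and in 17.9% of all 35116 promoter sequences of the same length. The 9 and 47 genes come from the 13879 windows with enough matched and read CpGs, a set unlike all promoters. The share in those 13879 windows was not counted. The other motifs were also searched on both strands. CATTCC, of TEAD factors, was found in 1 of the 9 lower genes, in 9 of the 47 higher genes and in 14% of all promoters. For AGATAA, a form bound by zinc-finger factors of the heart, it was 3, 10 and 10.3%. For TAAAAATA, one form of the MEF2 site, it was 0, 0 and 2.28%. For TATAAA, the core promoter box, which can share letters with the MEF2 form, it was 2, 10 and 11.5%. A match is only a run of letters, and the windows were chosen by their methylation.

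**Figure D1:**
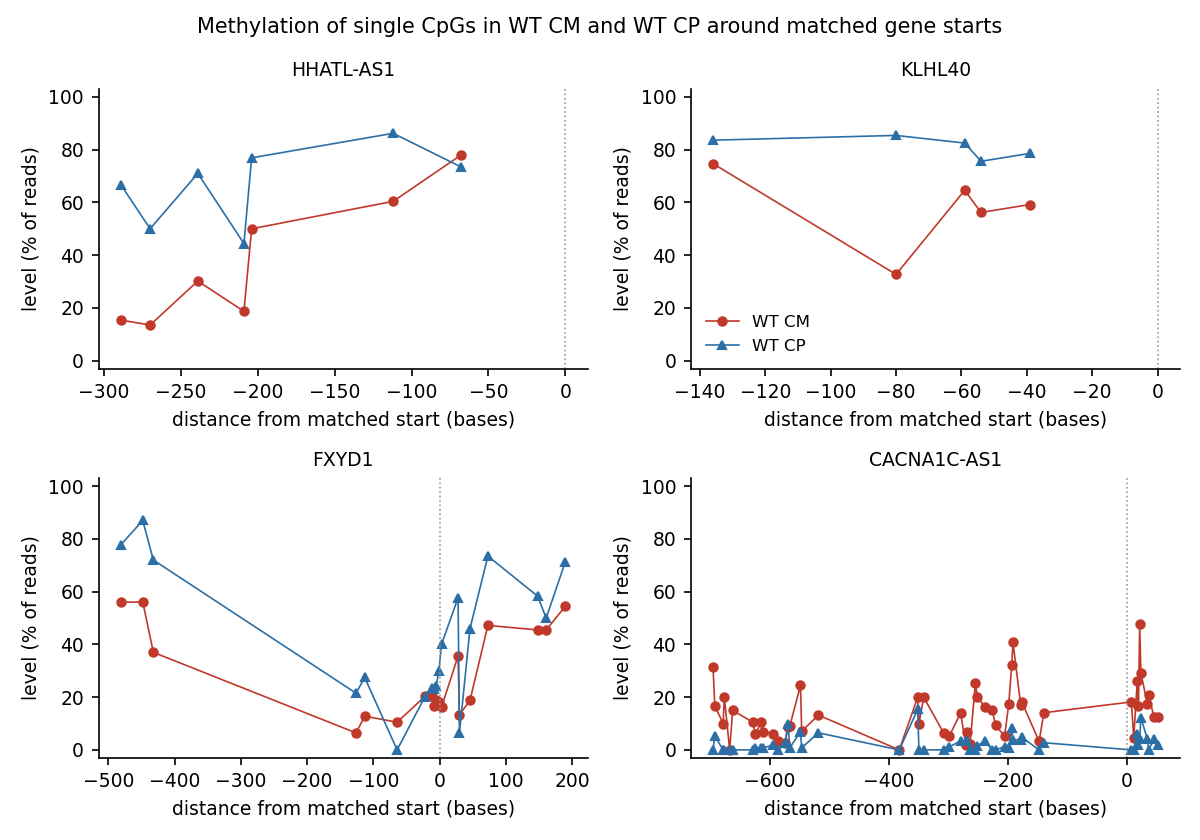
Methylation level of single CpGs (% of reads, CpGs with 10 or more reads in both libraries) against distance from the matched gene start in bases, for WT CM (red circles) and WT CP (blue triangles). Lines join neighbouring CpGs. The WT CM points lie below WT CP at all 5 KLHL40 CpGs, and they lie above WT CP at most CpGs of CACNA1C-AS1.

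The 48 windows that were higher in WT CM belonged to 47 genes. The one past 25 points was CHCHD2, a mitochondrial protein gene, with 63.0% in WT CM (173 reads) and 31.6% in WT CP (272 reads), after 36.7% in WT SC and 47.0% in WT CME. SHROOM3-AS1 had 35.2% in WT CM and 10.4% in WT CP, and had been at 8.04% in WT SC. GSN, the actin-severing protein gelsolin, had 43.4% in WT CM and 19.2% in WT CP. RBM47, an RNA-binding protein, had 35.8% in WT CM and 16.2% in WT CP, and HNF4A, a liver and gut transcription factor, had 72.6% in WT CM and 55.6% in WT CP. Both RBM47 and HNF4A had been higher in WT SC, at 71.3% and 96.5%, so their gain in WT CM went back only part of the way.

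The bins called at 25 points followed separate paths. The 28 bins higher in WT CM had a median of 80.65% at the SC stage and 81.3% at CME, then 36.6% at CP and 63.95% at CM, all wild type. In 20 of them WT CP was 25 points or more below WT CME, and in 18 WT CM was still below WT CME. The 24 bins lower in WT CM had 89.75% at SC and 90.0% at CME, then 66.7% at CP and 35.55% at CM. WT CP was below WT CME in 21 of these. The dip at WT CP in the higher bins is in part given by their choice, since the WT CP library also chose them. In TKO CP the medians were 89.1% in the higher bins and 89.9% in the lower bins.

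**Figure D2:**
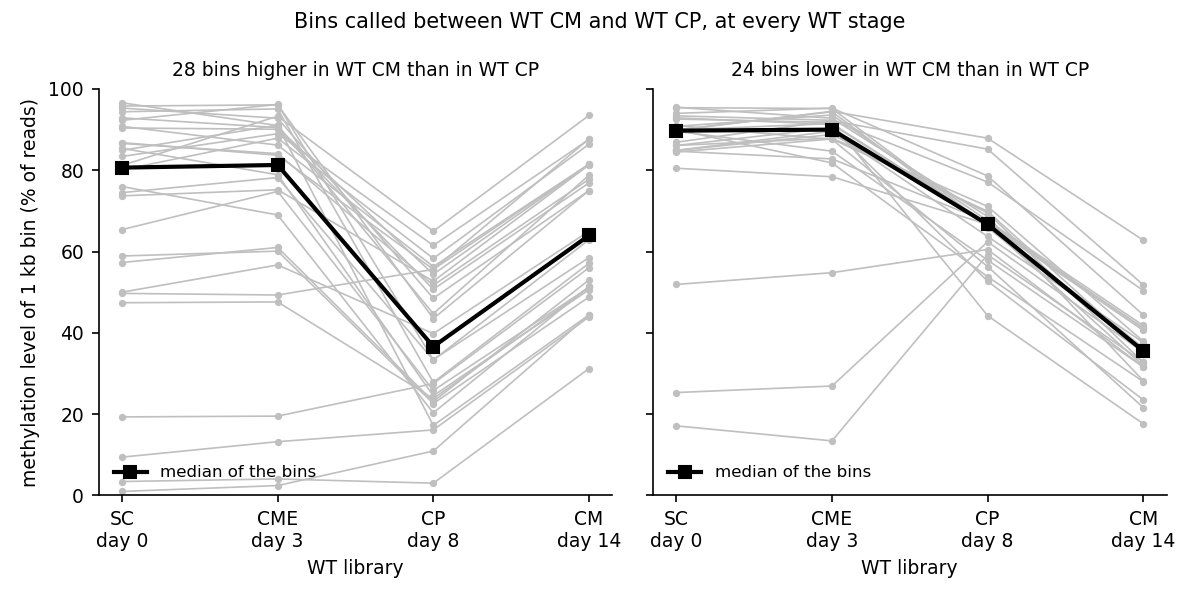
Methylation level (% of reads) of each called 1 kb bin in the 4 wild-type libraries in order of differentiation, for bins higher (left) and lower (right) in WT CM than in WT CP. Grey lines are single bins and black squares their medians, which stand at 63.95% at CM and 36.6% at CP on the left, and at 35.55% at CM and 66.7% at CP on the right.

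The largest rise lay inside HDAC4, a class IIa histone deacetylase that represses MEF2 factors, 72.8 kb downstream of its matched start (chr2:240250001-240251000). It had 78.8% in WT CM (170 reads) and 44.7% in WT CP (304 reads), a difference of 34.1 points with 8 of 9 CpGs in that direction and an adjusted p of 4.08e-11 (Fisher's exact test). Earlier levels were 84.9% (WT SC) and 91.1% (WT CME), so this bin had been high, dipped in progenitors and was high again. Whether it is exonic or intronic is not given, since no hg19 annotation was used.

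TRIM71, a let-7 target and translational repressor of early embryonic cells, showed another path. A bin 26.0 kb downstream of its matched start (chr3:32885001-32886000) had 44.4% in WT CM (90 reads) and 10.9% in WT CP (165 reads), with all 5 CpGs higher in WT CM and an adjusted p of 2.23e-07 (Fisher's exact test). It had been at 0.962% in WT SC and 2.4% in WT CME, and was at 20.6% in TKO CP. The 5 CpGs were covered by 18 reads each in WT CM and 33 each in WT CP. A bin 19.1 kb upstream of DPPA2, a pluripotency gene (chr3:109054001-109055000), was likewise new, with 31.2% in WT CM (215 reads) and 2.99% in WT CP (234 reads), after 3.4% in WT SC and 4.03% in WT CME.

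The other 9 of the 12 largest rises ranged from 28.5 to 32.1 points. RGL1, a guanine nucleotide exchange factor for Ral, held one of them 121 kb from its matched start, with 75% in WT CM and 43.5% in WT CP. The nearest matched starts of the other 8 were LINC01686 (17.2 kb away), LSM7 (12.1 kb), LOC100996660 (0.495 kb) and CDNF (140 kb). The rest were ZNF326 (13.2 kb), CAMK2A (77.8 kb), LOC124903497 (0.752 kb) and ZCCHC14 (57.9 kb). Genes without a matched start may lie nearer to these 8 bins. In 3 of the bins (LSM7, LOC100996660 and ZCCHC14) the mean over CpGs differed by only 8.42, 0.957 and -0.735 points. In these 3, 5 of 7, 2 of 9 and 1 of 6 CpGs were higher in WT CM.

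The largest fall, -40.4 points, lay inside TMEM184B, a transmembrane protein gene, 37.2 kb downstream of its matched start (chr22:38631001-38632000). It had 28.2% in WT CM (227 reads) and 68.6% in WT CP (344 reads), with all 5 CpGs lower in WT CM and an adjusted p of 5.49e-19 (Fisher's exact test). It was at 95.5% in WT SC, 92.8% in WT CME and 95.6% in TKO CP. The bin next to HHATL-AS1 (chr3:42743001-42744000), which overlaps the promoter printed above, had 35.3% in WT CM and 69.9% in WT CP, the fourth largest fall.

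Inside CMIP, an adaptor protein of T-cell signalling, a bin had 44.4% in WT CM and 78.6% in WT CP. Inside CDC14B, a phosphatase, a bin had 51.8% in WT CM and 85.2% in WT CP. A bin 70.9 kb upstream of its nearest matched start, AFAP1, an actin filament-associated protein, had 21.6% in WT CM and 56.3% in WT CP. Another, 115 kb upstream of its nearest, TLE3, a Groucho-type co-repressor, had 23.5% in WT CM and 52.7% in WT CP. All 4 were over 85% in WT SC and WT CME.

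The remaining falls among the 12 largest ranged from -36.8 to -28.9 points. Their nearest matched starts were FAM181A-AS1 (30.8 kb away), TAF4 (558 kb), LOC107984906 (8.86 kb), MAP2K3 (112 kb), LOC124904075 (0.529 kb) and CHMP2A (0.972 kb). Genes without a matched start may lie nearer to these bins. The CHMP2A bin, at an ESCRT-III gene, had 31.6% in WT CM and 60.5% in WT CP, but its mean over CpGs differed by only -7.09 points and 4 of its 9 CpGs were lower. No called bins were adjacent to each other.

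With the threshold lowered to 10 points, 1129 bins were higher in WT CM (1.24%) and 415 lower (0.457%). With reads divided by the number of CpGs, 0 of these 1544 passed the adjusted p and 343 had an unadjusted p under 0.05. The 1544 were chosen from the same reads, so the 343 are in part given by the choice. Of the 1078 higher bins whose CpGs were read in all 7 libraries, 74.86% had WT CP 10 points or more below WT CME, against 12.87% of all bins. For the 394 lower bins it was 58.63%. Both directions therefore lay largely at sites that had already moved, and the higher bins share the WT CP library with that earlier step, so their share is in part given by the choice.

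Some of the higher bins were low in stem cells and gained methylation late. In 96 of the 1078 higher bins WT SC and WT CME were both under 20%. The share of all bins with both under 20% was not counted. The medians of the 96 were 7.01% at SC and 10.05% at CME, then 7.755% at CP and 21.2% at CM. The low SC and CME values and the rise from CP to CM are given by how these bins were chosen. In TKO SC the level was over 50% in 24 of them and under 20% in 46, and these shares over all bins were not counted. The one with the most CpGs, 75, lay inside DACT3, an antagonist of Wnt signalling, with 35.6% in WT CM and 16.3% in WT CP, after 7.32% in WT SC. The next largest inside a gene, of 59 CpGs in NEURL1B, a ubiquitin ligase of the Notch pathway, had 39.1% in WT CM and 22.1% in WT CP. Its TKO SC level was 88.6%. These 2 are named for their CpG number after the values were seen.

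Of the 415 lower bins at 10 points, 51 lay within 2.5 kb of a matched start and 193 inside a matched gene. For the 1129 higher bins the counts were 186 and 418. The shares over all bins were not counted, so whether such places are more frequent among these bins cannot be said. Inside MIR1-1HG, the host gene of the muscle microRNA miR-1, a bin had 72.5% in WT CM and 88.7% in WT CP, and another had 36.4% in WT CM and 56.2% in WT CP. Inside ATP2A1, the calcium pump of fast skeletal muscle, a bin had 44.2% in WT CM and 59.5% in WT CP. KCNA7, a voltage-gated potassium channel, had a bin upstream of its start with 39% in WT CM and 59.4% in WT CP. BNIP3, a mitophagy receptor induced by low oxygen, had 34.8% in WT CM and 49.8% in WT CP, and PFKL, a glycolytic enzyme, had 49% in WT CM and 61.7% in WT CP. These 5 genes were picked after the values were seen, as examples only. They do not show a theme, since at 10 points the fixed list of energy metabolism had 4 bins higher and 0 lower. The list of ion channels, calcium handling and junctions had 4 higher and 1 lower, and the sarcomere list 0 and 0.

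Lists of cardiac, metabolic, signalling, pluripotency and imprinted genes, and markers of other cell types, held 237 genes. A start could be matched for 106 of them, which gave 669 bins in the gene or within 2 kb of its start. Of these, 0 were called at 25 points in either direction, 16 were higher and 3 lower at 10 points, and 58 were higher and 10 lower by adjusted p alone. Over all bins, 1.24% were higher and 0.457% lower at 10 points, and 4.48% were higher and 1.35% lower by adjusted p. With reads divided by the number of CpGs, 0 of these 68 passed the adjusted p and 9 had an unadjusted p under 0.05. The 68 were chosen from the same reads, so the 9 are in part given by the choice. The median difference was 0.138 points over these bins and 0.098 over all 90801.

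Of 77 bins at 12 matched genes for cardiac transcription factors, 17 were higher in WT CM by adjusted p, 0 were lower, and none differed by 10 points. With reads divided by the number of CpGs, 0 of the 17 passed the adjusted p or had an unadjusted p under 0.05. They lay at TBX5 (5 bins), IRX4 (5), HAND1 (3), HAND2 (2), MEIS2 (1) and MEF2A (1), all regulators of heart formation or its growth. The widest, 0.317 kb from the matched start of TBX5, had 19.2% in WT CM and 9.6% in WT CP, after 1.98% in WT SC and 2.08% in WT CME. At IRX4, a ventricular factor, a bin 1.54 kb from the start had 19.6% in WT CM and 10.9% in WT CP, and 92.7% in TKO CP. Some of the 17 were at very low levels. The MEF2A bin had 0.324% in WT CM and 0.0347% in WT CP, and a HAND1 bin 1.18% in WT CM and 0.242% in WT CP. The median over the list's bins was 0.394 points. By adjusted p alone 4.48% of all bins were higher and 1.35% lower.

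Genes of ion channels, calcium handling and junctions had 78 bins at 8 matched genes, with 4 higher and 1 lower at 10 points, against 1.24% higher and 0.457% lower of all bins. SLC8A1, the sodium-calcium exchanger, had 22.3% in WT CM (260 reads) and 5.26% in WT CP (361 reads) in a bin 0.73 kb downstream of its start, with all 7 CpGs higher and an adjusted p of 3.65e-08 (Fisher's exact test). It was at 2.45% in WT SC and 6.48% in TKO CP. At 638 kb into CACNA1C, the pore of the L-type calcium channel, the bin that holds the start of CACNA1C-AS1 had 13.7% in WT CM (3063 reads) and 2.67% in WT CP (3856 reads), with 43 of 48 CpGs higher. Its promoter window, printed above, had 18.6% in WT CM and 3.34% in WT CP, with all 20 CpGs higher, and at most 2.48% in the other 5 libraries.

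KCNH2, the channel of the rapid delayed rectifier current, moved both ways. One bin, 4.09 kb from a matched start, had 25.2% in WT CM and 5.99% in WT CP, after 90.5% in WT SC and 77.2% in WT CME. Another, 10.4 kb from a start, had 41.4% in WT CM and 55.3% in WT CP, after 80.7% in WT SC and 80.2% in WT CME. At HCN4, the pacemaker channel, 2 bins were lower by adjusted p, by -5.08 and -2.56 points.

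Of 25 sarcomere genes, 8 had a matched start, with 29 bins and 0 past 10 points in either direction. By adjusted p ACTN2, alpha-actinin of the Z disc, was higher at 1.79% in WT CM and 1.1% in WT CP, and LDB3, another Z-disc protein, was lower at 2.29% in WT CM and 3.7% in WT CP. For natriuretic peptides and maturation markers 2 genes were matched, with 2 bins and no change by adjusted p. The contractile genes without a matched start were not analysed here.

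Among genes of energy metabolism and lactate use, 108 bins at 15 matched genes held 4 higher and 0 lower at 10 points (1.24% and 0.457% of all bins). CPT1A, which brings fatty acids into mitochondria, had 34.4% in WT CM and 17.3% in WT CP with all 11 CpGs higher. ESRRG, a nuclear receptor of oxidative metabolism, had 13.3% in WT CM and 2.99% in WT CP just past its start, and 12% in WT CM and 1.41% in WT CP just before it. SLC16A3, a lactate exporter, had 81.7% in WT CM and 71.3% in WT CP.

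Pluripotency genes had 37 bins at 6 matched genes, with 1 higher and 1 lower at 10 points (1.24% and 0.457% of all bins). ZFP42, also called REX1, a stem cell marker, had 21.0% in WT CM and 8.85% in WT CP. TERT, the catalytic part of telomerase, had 83.8% in WT CM and 93.9% in WT CP in a bin 5.68 kb from its start. Of the signalling and mesoderm genes, WNT3 had 21.8% in WT CM and 9.71% in WT CP, and TBX6 had 37.1% in WT CM and 26.2% in WT CP. DNMT3A, a de novo methyltransferase, had 3 bins higher and 1 lower by adjusted p, the widest at 19.9% in WT CM and 11.2% in WT CP. Germline genes, with median levels of 88.49% in WT CM and 91.33% in WT CP, had 0 of 30 bins past the adjusted p.

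Imprinted genes, where 1 parental copy is methylated, had 56 bins at 9 matched genes, with 2 higher and 1 lower at 10 points (1.24% and 0.457% of all bins). One MEST bin had 45.2% in WT CM and 33.8% in WT CP with all 29 CpGs higher. By adjusted p MEST had 2 bins higher and 1 lower. The lower one had 40.1% in WT CM and 46.7% in WT CP, with 12 of its 23 CpGs lower. At GNAS a bin at one start had 51.4% in WT CM and 38.2% in WT CP with all 22 CpGs higher, while a bin 7.26 kb from another matched start had 43.3% in WT CM and 54.2% in WT CP. Reads could not be assigned to parental copies.

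Of the bins at markers of other cell types, 0 were called at 25 points. By adjusted p, 4.48% of all bins were higher and 1.35% lower. Of the endothelial and blood (41 bins), fibroblast (4) and neural ectoderm (28) lists, 0 bins passed the adjusted p in either direction. The smooth muscle list had 2 of 11 bins higher, with SMTN at 42.7% in WT CM and 22.1% in WT CP. The epicardial list had 1 of 15, at WT1, and the endoderm list 1 of 19, at HNF4A. The part of other cells in the late differences was not tested.

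**Figure D3:**
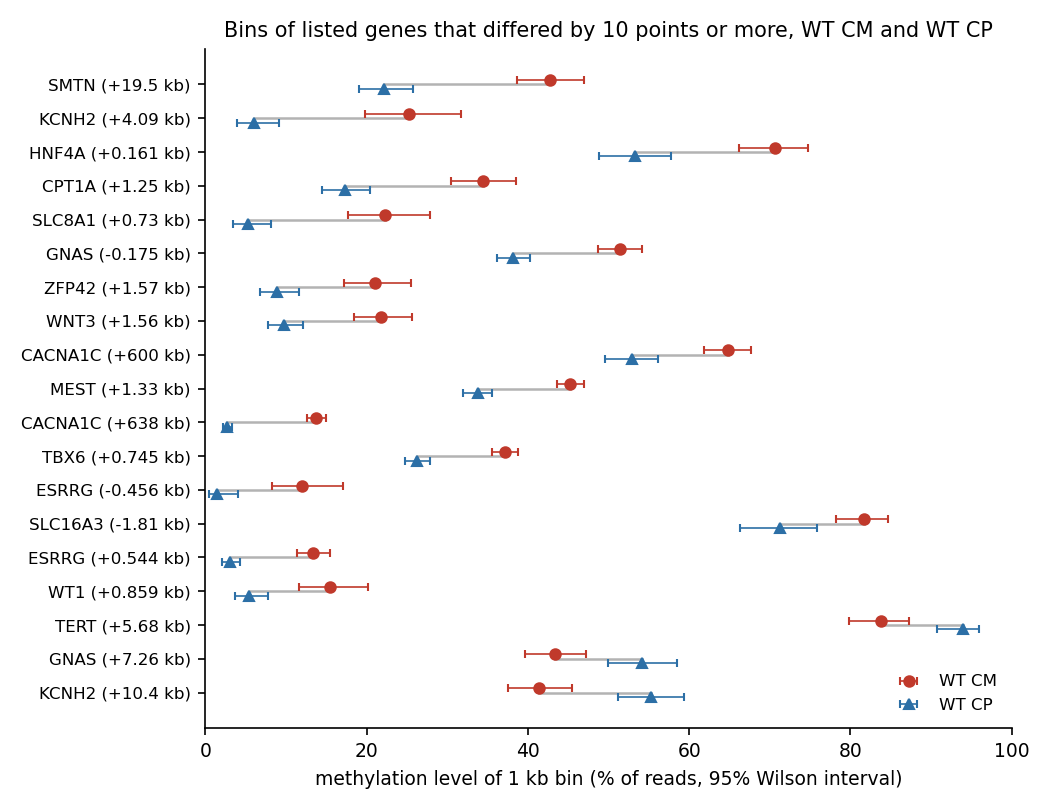
Level (% of reads, with 95% Wilson intervals) in WT CM (red circles) and WT CP (blue triangles) of the 19 bins of listed genes that differed by 10 points or more, with each bin's distance from the gene's matched start. WT CM is higher in 16 bins and lower in 3, those of TERT, GNAS (+7.26 kb) and KCNH2 (+10.4 kb).

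The size of the median shift over all bins, called ones included, differed by starting level. Classed by WT CP level, the median difference was 0.0213 points in the 27385 bins at 0 to 5%, 1.08 in the 4450 bins at 5 to 20%, 2.56 in the 4274 bins at 20 to 50%, 1.57 in the 11068 bins at 50 to 80% and 0.561 in the 36244 bins at 80 to 95%. In the 7380 bins at 95 to 100% it was -0.972. The quartiles at 20 to 50% were -1.92 and 7.35 points, and 65.54% of those bins were higher in WT CM. The median was highest in that class and smaller than the spread of its bins.

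Classing and differencing with the same WT CP reads pulls extreme bins back, so the shifts were also taken from separate reads. With the class from plus-strand reads of WT CP and the difference from minus-strand reads, the medians were 0 at 0 to 5%, 1.2 at 5 to 20%, 2.31 at 20 to 50%, 0.608 at 50 to 80% and 0.322 at 80 to 95%. This used only CpGs read on both strands, which left fewer bins, 934 at 20 to 50% and 1042 at 95 to 100%. With class and difference both from the minus strand of those CpGs, the medians were 1.27 at 50 to 80% and -1.1 at 95 to 100%. With separate strands the median at 95 to 100% was 0.137, with a 95% interval of -0.0874 to 0.287 and 51.82% of bins above 0. The loss in the highest class was thus no longer seen, and a gain was not shown either. Classed by WT CME, whose reads enter neither side of the difference, the 6 medians were 0.00673, 0.438, 1.97, 1.13, 0.442 and 0.113. The gain at intermediate levels was thus present in each of these ways of classing. The loss at the highest level was present only where class and difference used the same WT CP reads. Single CpGs classed by WT CP differed from the bins: the 5 to 20% class had a median of -0.527 points. Their median was highest at 50 to 80% (5.08 points) and not at 20 to 50% (3.12 points). At 95 to 100% it was -2.22 points.

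**Figure D4:**
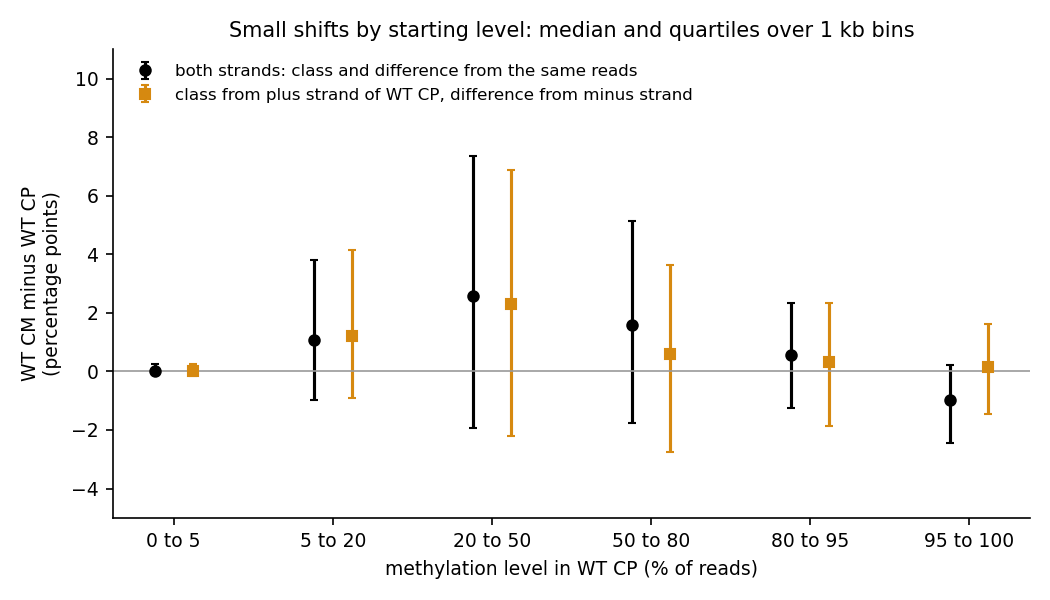
Difference in level (WT CM minus WT CP, percentage points) of 1 kb bins by class of WT CP level, as median (points) and quartiles (bars). Class and difference are from the same reads (black) or from separate strands (orange, in fewer bins). The median is highest at 20 to 50% in both, at 2.56 and 2.31 points, and at 95 to 100% it is -0.972 with the same reads and 0.137 with separate strands.

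The calls at 10 points differed between these classes. In the 20 to 50% class 10.4% of bins were higher and 2.27% lower, at 50 to 80% 3.69% were higher and 1.67% lower, and at 80 to 95% 0.146% were higher and 0.306% lower. At 25 points the 20 to 50% class held 14 higher bins and 1 lower, and the 50 to 80% class 10 higher and 21 lower. Of the 4450 bins at 5 to 20%, 184 were higher by 10 points (4.13%) and 7 were lower (0.157%). Bins at low levels have little room to fall and bins at high levels little room to rise. The split in each class is therefore in part fixed by its level. The classes also use the same WT CP reads as the differences, and these calls were not repeated on separate strands. At every CpG density the median was highest at 20 to 50%, with 2.86 points in bins of 5 to 9 CpGs and 2.08 in bins of 40 or more.

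The libraries were alike in depth and conversion. Total coverage summed over listed cytosines was 156566713 in WT CM and 158372334 in WT CP, and 0.2156% and 0.2189% of mitochondrial CpG reads were C in WT CM and WT CP, a measure of unconverted cytosine. In WT SC and WT CME it was 1.457% and 1.436%. Those 2 libraries thus have a higher floor, which matters for levels of a few percent.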

How the data were processed

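Alignment and methylation calling were done by a sequencing core, per the labels' protocols, on hg19, per the submitters' processing notes; which aligner and caller is not given in the sources used here. Each line of the deposited files is 1 CpG cytosine on 1 strand with its coverage, an unnormalized read count, and the percent of those reads that the authors called C or T, per the file headers. The lowest deposited coverage was 10. Coverage times percent gave whole reads in 100% of lines.

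Minus-strand positions were moved by 1 base and both strands summed. Bins of 1 kb, CpG minima and tests were as given in the report. Wilson intervals (95%) cover counting error only, and PCR copies are not independent molecules. Of 35116 RefSeq promoter sequences (GRCh38.p14), 13637 matched 1 place on the files' CpG positions by 8 or more CpGs, and 1885 more by 5 or more between matched neighbours, where 46 mirrored patterns also matched. After 126 out of order were dropped, 15396 matches at 12808 genes were used. A bin was called inside a gene by the gene's GRCh38 length. Chromosome 8 has no matched starts.

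Named bins are the 12 greatest rises and 12 greatest falls, any run of adjacent called bins, and listed genes with a called bin. Members, lists and tests were chosen with earlier results of these data known. The test was checked on simulated reads. Tests ran in scipy 1.17.1 under Python 3.11.15, with pandas 2.3.3, numpy 2.4.6 and numba 0.67.0, and figures in matplotlib 3.10.9.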

Additional observations from a re-analysis of the deposited data

How the results depend on the processing

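With 1 library per group, leaving out a replicate was not possible. No paired analysis was possible because each group has 1 library. The counts of called bins, higher and lower in WT CM (28 and 24 as reported), were 10 and 13 at a coverage minimum of 20, 8 and 9 at 30, 112 and 54 with 3 or more CpGs per bin, 1 and 4 with 10 or more, 407 and 174 at 15 points, 0 and 1 at 40 points, 1129 and 415 at 10 points, and 0 and 0 with reads divided by the number of CpGs. The lower bins were 14 with 2 kb bins and 15 on the plus strand alone, where the higher bins stayed within 1.5 times the reported count. Calls of single CpGs, higher and lower, were 259 and 67 on the plus strand alone and 287 and 54 on the minus strand alone. For the earlier steps at 40 points, WT CP minus WT CME had 5 higher and 1046 lower bins and WT CME minus WT SC had 0 and 0, and with CpGs read in all 7 libraries WT CME minus WT SC had 10 lower. Promoter windows at 10 points were 48 higher and 9 lower. By the mean over CpGs, the bin at chr16:87584001-87585000 turned to -0.735 points, and 6 of the other 23 named bins fell below 25 points. The median shifts by class, from low to high, were 0.0141, 1.31, 2.45, 0.913, 0.375 and 0.205 when classed by the mean of WT CM and WT CP, 0.00673, 0.438, 1.97, 1.13, 0.442 and 0.113 by WT CME, and 0, 1.2, 2.31, 0.608, 0.322 and 0.137 by separate strands. Over single CpGs they were 0, -0.527, 3.12, 5.08, 2.13 and -2.22, and at a coverage minimum of 20 the upper 3 were 1.42, 0.508 and -0.846. With the mitochondrial share of C removed the lowest class was at 0. The cause of these changes was not tested. All 24 named bins lost the call with reads divided by the number of CpGs, and all that could be tested kept it at a coverage minimum of 20 (10 bins) and of 30 (5 bins). One named bin had 62 reads in WT CM, summed over its CpGs.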

Other observations

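Chromosome 21 took 4.227% of the reads of WT CM and 3.651% of those of WT CP, a ratio of 1.158. The ratios of the other chromosomes lay between 0.9519 and 1.044. It held 1578 of the 90801 bins tested, 1 of the 28 higher bins and 0 of the 24 lower bins. The part of this read share in the late differences was not tested.

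Of the 28 higher bins, 16 had every CpG in the same direction, and of the 24 lower bins 15 did. By the mean over CpGs, 13 and 12 of them still differed by 25 points or more, and 8 and 4 by under 15.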
